A study of Mus musculus with 12 samples.

Results

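The prostanoid receptor genes are the 9 mouse genes Ptger1, Ptger2, Ptger3, Ptger4, Ptgir, Ptgfr, Ptgdr, Ptgdr2 and Tbxa2r, and their H3K27ac was followed here in intestinal organoids with and without Ptger4. H3K27ac, acetylation of histone H3 at lysine 27, marks active promoters and enhancers. It was profiled by CUT&RUN, in which an antibody directs a nuclease to cut out the DNA that carries the mark. The members' data were the intervals of the SEACR peak caller whose nearest protein-coding gene span, at 0 to 50 kb, was a receptor gene. This gave 78 of 166517 intervals, at 7 of the 9 genes. The genes were taken as a family, with earlier results of these data known, so their values are described as a set and no list was tested.

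The 12 libraries came from organoids grown out of mouse crypts in Matrigel and fell into 6 groups of 2. Wild-type (WT) organoids and organoids labelled as Ptger4 knockout (KO) each received vehicle, arachidonic acid (AA) at 25 µM or prostaglandin E2 (PGE2) at 50 nM. Treatment lasted 6 days by the protocol text and 3 days by the sample attributes, and the series' design text names a dimethyl PGE2 analogue where the group labels say PGE2. The labels name no allele, Cre driver, clone or number of animals. Nor do they tell if paired libraries were grown as separate cultures, and p-values here reflect only library-to-library spread, which may be technical. Sequencing depth is unknown, because the deposited scores carry no read counts.

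Prostanoids are made from AA by the cyclooxygenases Ptgs1 and Ptgs2 and by terminal synthases, and act through G-protein-coupled receptors. EP2 (Ptger2), EP4 (Ptger4), the DP receptor (Ptgdr) and the prostacyclin receptor IP (Ptgir) couple to Gs and raise cAMP. EP3 (Ptger3) and DP2 (Ptgdr2) couple mainly to Gi and lower it, whereas EP1 (Ptger1), the FP receptor (Ptgfr) and the thromboxane receptor (Tbxa2r) act mainly through calcium. In the intestinal epithelium, PGE2 acting on EP4 is known for its part in crypt regeneration and barrier maintenance.

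Ptger4 was the one receptor gene of the 8 with a listed start whose start lay inside an interval, against 49.0% of 17273 protein-coding genes with a listed start. The 250 bases before 3 of the starts are shown, from RefSeq (GRCm38.p6, the assembly of mm10), because they set the Ptger4 promoter, which lay within a scored interval, beside those of the other Gs-coupled EP gene and of the DP gene. They are written 5′ to 3′ on the gene's strand, and capitals mark the matches to the searched motifs. The Ptger4 window is chr15:5244188-5244437 (minus strand), the Ptgdr window chr14:44859376-44859625 (minus strand) and the Ptger2 window chr14:44987861-44988110 (plus strand). The Ptgdr window also overlapped a scored interval in part, from 148 bp before the start (mean score 0.103), and the Ptger2 window overlapped none.
Ptger4: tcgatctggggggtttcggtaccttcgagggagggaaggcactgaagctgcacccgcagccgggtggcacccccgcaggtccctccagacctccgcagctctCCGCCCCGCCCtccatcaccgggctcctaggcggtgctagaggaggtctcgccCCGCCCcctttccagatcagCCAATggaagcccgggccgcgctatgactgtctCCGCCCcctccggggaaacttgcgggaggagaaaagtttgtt
Ptgdr: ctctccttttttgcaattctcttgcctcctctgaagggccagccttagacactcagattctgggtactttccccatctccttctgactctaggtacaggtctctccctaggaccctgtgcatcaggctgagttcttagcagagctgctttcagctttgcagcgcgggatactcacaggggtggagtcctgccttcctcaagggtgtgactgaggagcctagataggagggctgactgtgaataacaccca
Ptger2: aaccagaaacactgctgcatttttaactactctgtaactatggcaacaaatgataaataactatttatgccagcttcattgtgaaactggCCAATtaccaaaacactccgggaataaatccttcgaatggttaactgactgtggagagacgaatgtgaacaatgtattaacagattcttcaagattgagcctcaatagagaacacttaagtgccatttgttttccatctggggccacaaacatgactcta

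The Ptger4 window was rich in G and C (66.8%, with 19 CpG dinucleotides), against medians of 55.6% and 10 over 21262 promoters. It held 4 GC boxes (GGGCGG or CCGCCC), of which 2 overlap each other, and 1 CCAAT box (CCAAT or ATTGG). At least 1 GC box was found in 42.6% of all promoters and a CCAAT box in 35.4%. The Ptgdr window (53.2% G and C, 2 CpG) held none of the searched motifs, and the Ptger2 window (38.0%, 3 CpG) held a single CCAAT box. Ptger3 had the most CpG of the receptor promoters (21, with 62.0% G and C) and 3 GC boxes. The cAMP response element TGACGTCA, present in 1.92% of all promoters, was in no receptor window, and its shorter form TGACG (or CGTCA, in 20.2%) was found at 1 of the listed starts of Tbxa2r only. TATAAA (or TTTATA, 11.6%), the AP-1 site TGACTCA (or TGAGTCA, 4.06%) and a consensus NF-kB site (0.146%) were not found in these windows. A match is a description of the letters and does not show binding.

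Intervals were spread unevenly over the family. Ptgdr had 23 intervals, Ptger3 20, Ptger2 14, Ptger4 9, Ptgfr 7, Ptgdr2 4 and Ptgir 1, and Ptger1 and Tbxa2r had none. Among 21896 protein-coding genes 20.6% had none, and 5.11% had as many as Ptgdr or more. For Ptger1 (chromosome 8, 83666644 to 83672756) the closest interval lay 12524 bp from the gene span and was nearest to Gipc1. For Tbxa2r (chromosome 10, 81328268 to 81335174) it lay 6188 bp away and was nearest to Pip5k1c. No level is therefore given for these 2 genes, which does not show that they lack the mark. None of the 702 MACS2 intervals was assigned to a receptor gene.

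The intervals lay at different places relative to the gene spans. Ptger3 (chromosome 3, 157566821 to 157644758) contained 13 of its 20 intervals and all 4 intervals of Ptgdr2 (chromosome 19, 10924519 to 10942511) overlapped its span. Ptger4 (chromosome 15, 5233399 to 5244187, minus strand) overlapped 3 of its 9, and the other 6 lay upstream and overlapped the long noncoding RNA Gm41257. Ptgdr (chromosome 14, 44851235 to 44859375) and Ptger2 (44988111 to 45003820) are neighbours, and each overlapped 1 of its own intervals. The noncoding gene Gm16976 (44858581 to 44974958) overlaps the 5′ end of Ptgdr and runs on towards Ptger2, and 10 Ptgdr and 8 Ptger2 intervals overlapped it. The single Ptgir interval ended 2183 bp before its span on chromosome 7 (16906490 to 16910905). Ptgfr (chromosome 3, 151798610 to 151837528) overlapped 2 of 7. Whether an interval is exonic or intronic was not determined here. At the 50 kb limit, the last intervals inside were one of Ptgdr at 49.2 kb (mean score 0.0909) and one of Ptger4 at 48.2 kb (0.135), and the first outside lay 51.3 kb from Ptgdr (0.142) and 52.9 kb from Ptger4 (0.129).

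The score is a signal value per interval on the authors' scale, and the sources used here do not say how it was computed. It was taken here as a value per base, and levels of genes were compared as the width-weighted mean score of their intervals. On this scale Ptgdr (0.145 ± 0.015, SD over 12 libraries) and Ptger4 (0.142 ± 0.019) led the family, at percentiles 72.8 and 70.0 of 17393 genes. Ptgdr2 followed with 0.139 ± 0.025, then Ptger2 with 0.124 ± 0.016 and Ptger3 with 0.112 ± 0.017. Ptgfr (0.0932 ± 0.012) and Ptgir (0.0887 ± 0.063) were lowest, at percentiles 14.1 and 11.0, and the median gene had 0.126. Ptger3 was the one gene that passed the test against its next lower neighbour: its level exceeded that of Ptgfr in 10 of 12 libraries, by 0.17 ± 0.048 (SE) on the log2 scale (exact sign-flip permutation test, two-sided, p = 0.0034, adjusted p = 0.0205 over 6 neighbouring pairs). The other 5 pairs did not differ beyond their spread by this test (adjusted p from 0.165 to 0.599), and genes that were not neighbours were not compared. Without WT vehicle replicate 2, or without WT AA replicate 1, Ptger4 stood next above Ptger2 and exceeded it in 10 of 11 libraries (exact permutation test, adjusted p = 0.0205 in each case). Without KO vehicle replicate 2 Ptgfr above Ptgir passed as well (adjusted p = 0.0410). Without KO AA replicate 1 Ptgir stood next below Ptger3 and no pair of neighbours passed.

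**Figure D1:**
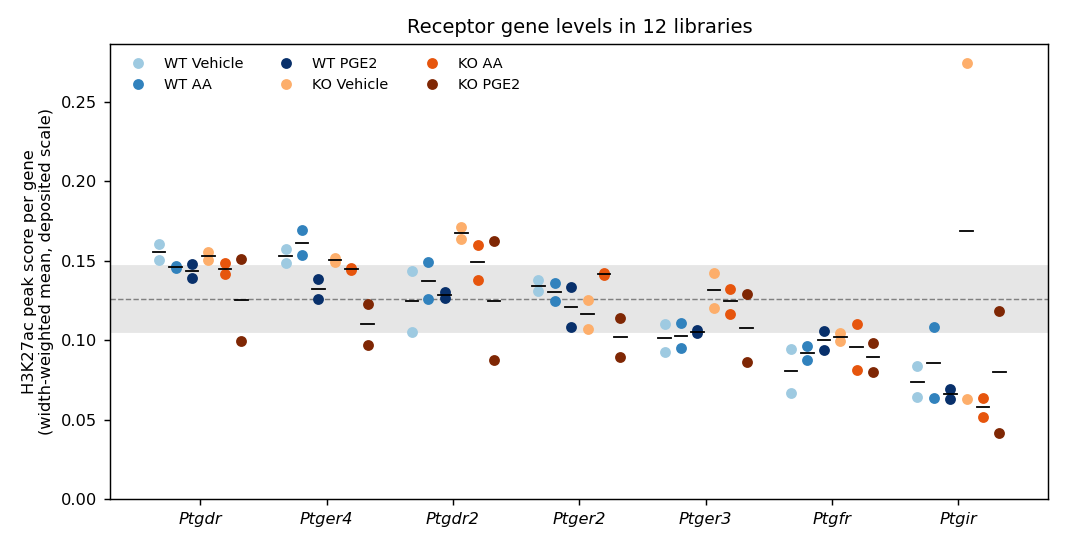
H3K27ac level of each receptor gene (y axis, width-weighted mean peak score on the deposited scale) in the 12 libraries. Points are libraries coloured by group, short bars are means of 2 libraries, the dashed line is the median of all genes (0.126) and the grey band their middle range from the 25th to the 75th percentile; 1 KO vehicle library of Ptgir stands far above the others (0.275).

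The rank also depended on which interval stood for a gene. Taking only the interval of highest mean, Ptgdr (0.201) and Ptger3 (0.200) led, followed by Ptger4 (0.179), Ptgdr2 (0.167), Ptger2 (0.147), Ptgfr (0.120) and Ptgir (0.0887). The Ptgdr maximum, from 44904008 to 44916952, lay 44.6 kb from the gene span, and the Ptger2 maximum, from 44935466 to 44943036, lay 45.1 kb from its span. That of Ptger4, from 5243427 to 5245375, covered the gene start. Within 10 kb of the spans Ptger4 was first, followed by Ptgdr2. With intervals that overlap the span only, the order was Ptger4, Ptgdr2, Ptger3, Ptger2, Ptgfr and Ptgdr, which puts Ptgdr last, and the pair that passed was Ptgdr2 over Ptger3 (11 of 12 libraries, exact sign-flip permutation test, adjusted p = 0.0269). The high level of Ptgdr thus came from intervals outside its span.

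Library facts that touch these results concern KO PGE2 replicate 2 and the genotypes. The median score of that library over all intervals was 0.0941, against 0.112 to 0.122 in the other 11. The 10 epithelium markers, which define the labelled tissue, had a median gene level of 0.192 (percentile 97.3). This level ran from 0.191 to 0.235 in the WT libraries and from 0.122 to 0.189 in the KO libraries, without overlap. The gap was narrow, from 0.189 to 0.191, and the share of all genes so separated is not given here. By the markers' strongest intervals the genotypes did overlap (0.208 to 0.279 in WT, 0.143 to 0.229 in KO). Of the marker lists only endothelium was separate by that measure (lowest WT library 0.157, highest KO library 0.142). The strongest interval was lower in KO for 12278 of 17387 genes, and whether the epithelium difference exceeds this general one was not tested. Markers of other cell types had lower median levels: 0.102 for fibroblasts (3 of 6 genes with an interval), 0.107 for immune cells (5 of 6), 0.116 for endothelium, 0.125 for smooth muscle and 0.0999 for enteric neurons and glia. In such bulk samples fewer cells of a type and less signal per cell cannot be told apart.

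Ptger4, the gene named as knocked out, is described first. H3K27ac scores do not check its deletion, because the labels do not say which bases were removed. At the interval over the start, the WT libraries scored 0.182 and 0.253 with vehicle, 0.214 and 0.179 with AA, and 0.183 and 0.174 with PGE2. The KO libraries scored 0.124 and 0.300 with vehicle, 0.141 and 0.158 with AA, and 0.117 and 0.128 with PGE2. Of the KO libraries 5 lay below every WT library, and KO vehicle replicate 2 was the highest of all 12, so the genotypes overlapped. The share of all intervals with 5 KO libraries so placed is not given here. KO minus WT, as the mean over the 3 treatments, was -0.26 ± 0.15 (log2 of score plus 0.0579, SE; limma, adjusted p = 0.618), -0.42 without KO vehicle replicate 2 and -0.10 without KO vehicle replicate 1. The strongest intervals of all 17387 genes fitted had a median of -0.11 in that comparison. The epithelium gene level was also lower in the KO libraries, by the narrow gap given above. Its part in the Ptger4 difference was not tested.

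Inside the gene, the interval from 5239734 to 5241902 had the lowest unadjusted p of those overlapping the Ptger4 span. It scored 0.181 ± 0.037 (SD, n = 6) in WT and 0.137 ± 0.032 in KO, a log2 difference of -0.29 ± 0.14 (limma, adjusted p = 0.545). Far upstream, from 5282854 to 5283768, the difference was -0.49 ± 0.23 (adjusted p = 0.537). It was -0.25 without WT vehicle replicate 2 and -0.73 without WT vehicle replicate 1. In all, 6 of the 9 Ptger4 intervals were lower in KO, with a median of -0.15, and none passed.

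**Figure D2:**
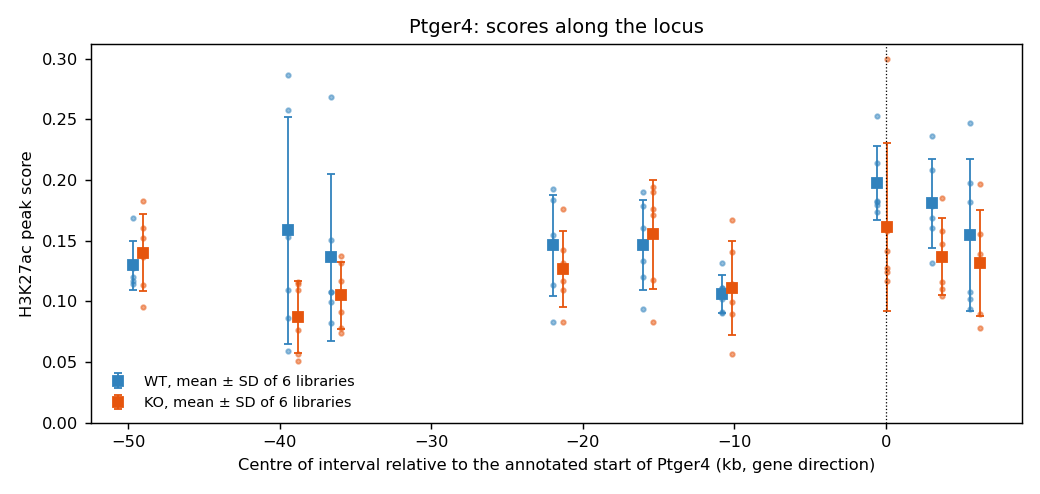
Peak score (y axis) of the 9 Ptger4 intervals against the distance of their centre from the annotated start (x axis, kb in the direction of transcription). Small points are libraries and squares are means ± SD of 6 WT (blue) or 6 KO (orange) libraries, drawn slightly apart; at the start most KO points lie below the WT points, apart from 1 KO vehicle library at 0.300.

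AA and PGE2 were compared with vehicle within each genotype, which asks whether the ligand precursor or the ligand moved the receptor loci. With AA in WT, 2 of 9 Ptger4 intervals had higher scores at an unadjusted p under 0.05, against 1.84% of all intervals. By sign 4 of the 9 were higher and 5 lower, with a median log2 difference of -0.03. As 1 value per gene the difference was 0.06 ± 0.11 (SE) and did not pass. The 9 intervals lie along 1 locus and come from the same libraries, so they are not independent observations. The interval from 5237276 to 5239274, inside the gene, scored 0.107 and 0.102 with vehicle and 0.197 and 0.247 with AA. Both AA libraries lay above both vehicle libraries, with a log2 difference of 0.78 ± 0.29 (limma, unadjusted p = 0.0125, adjusted p = 1.00). Such a separation of 2 libraries from 2 arises often by chance, here and in the later comparisons. Its share over all intervals is not given here. With PGE2 the same interval scored 0.182 and 0.094, which spans the vehicle values. In KO it scored 0.078 and 0.156 with vehicle and 0.139 and 0.196 with AA, which overlap. The interval from 5279872 to 5281141 differed by 0.69 ± 0.32 with AA in WT. It differed by 0.37 without WT AA replicate 2 and by 1.01 without WT AA replicate 1.

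With PGE2 in KO, the start interval of Ptger4 differed from vehicle by -0.50 ± 0.25 (limma, adjusted p = 0.586), by -0.01 without KO vehicle replicate 2 and by -0.99 without KO vehicle replicate 1. The upstream interval from 5257559 to 5262180 scored 0.190 and 0.171 with vehicle and 0.118 and 0.083 with PGE2, without overlap, a difference of -0.60 ± 0.25 (adjusted p = 0.537). As 1 value per gene, Ptger4 had gene levels of 0.149 and 0.152 with vehicle and 0.123 and 0.0972 with PGE2, which do not overlap, but the difference of -0.32 ± 0.11 did not pass (limma over genes, adjusted p = 0.394). It was -0.20 without KO PGE2 replicate 2, the library of low overall score, and all intervals together had a median of -0.15 in this comparison. The PGE2 change in KO minus that in WT was -0.29 ± 0.36 at the start interval (adjusted p = 0.913), and ran from -0.78 without KO vehicle replicate 1 to 0.19 without KO vehicle replicate 2, so its sign rested on 1 library.

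Over the whole family, none of the 78 receptor intervals passed at an adjusted p of 0.05 in any of the 8 comparisons. Over all 166471 intervals tested the percentage that passed was 0% for AA and for PGE2 in each genotype and for the AA and PGE2 differences between genotypes. It was 0.000601% for KO vehicle minus WT vehicle and 0.0427% for KO minus WT over the treatments. With shares this small a count of 0 among 78 is not a result about the members, and it does not show that their scores were equal.

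At an unadjusted p under 0.05 the receptor intervals mostly followed the background. With AA in WT 4 of 78 were under it, against 4.56% of all intervals, and with PGE2 in WT 2 of 78, against 5.8%. With AA in KO there were 2, against 3.74%, and with PGE2 in KO 5, all lower, against 8.68% (6.85% lower). KO vehicle minus WT vehicle gave 2, against 4.55%. The AA change in KO minus that in WT gave 1, against 4.14%, and the corresponding PGE2 difference gave 3, against 6.42%. KO minus WT over the treatments gave 9, against 9.11%, of which 5 were higher and 4 lower. After each library was centred on its median, or quantile normalized, 6 were higher and 1 lower, the lower one at Ptgfr, so that no Ptger4 or Ptgdr interval had such a p. In the fit without a variance trend it was also 6 and 1. Over all 166471 intervals 14682 were under that p after centring and 13492 after quantile normalization, against 15160 in the main fit. Without these changes all 5 higher ones belonged to Ptger3, whereas over all intervals 2.28% were higher and 6.82% lower at that threshold.

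The Gs-coupled genes Ptger2, Ptgdr and Ptgir gave few differences between groups. At the Ptger2 maximum the scores were 0.183 and 0.174 (WT vehicle), 0.142 and 0.151 (WT AA), 0.127 and 0.159 (WT PGE2), 0.164 and 0.136 (KO vehicle), 0.143 and 0.181 (KO AA) and 0.094 and 0.114 (KO PGE2). The 2 WT vehicle libraries lay above the 4 treated WT libraries, with differences of -0.21 ± 0.24 for AA and -0.24 ± 0.24 for PGE2 that were no larger than their errors. The second was -0.12 without WT PGE2 replicate 1 and -0.35 without WT PGE2 replicate 2. A weaker Ptger2 interval, from 44975764 to 44977483, had the smallest p of the family for AA in KO: it scored 0.093 and 0.045 with vehicle and 0.264 and 0.155 with AA, a difference of 1.07 ± 0.36 (limma, adjusted p = 1.00). As 1 value per gene, Ptger2 was 0.125 and 0.107 in KO vehicle and 0.141 and 0.142 in KO AA, again without overlap. The difference of 0.20 ± 0.12 (SE) did not pass in the fit over genes, and the share of all genes so separated is not given here.

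Ptgdr, whose product binds prostaglandin D2, had a broad maximum 44.6 kb away that scored 0.216 and 0.243 (WT vehicle), 0.218 and 0.193 (WT AA), 0.175 and 0.198 (WT PGE2), 0.242 and 0.221 (KO vehicle), 0.203 and 0.166 (KO AA) and 0.228 and 0.106 (KO PGE2). KO PGE2 replicate 2 was the low value. PGE2 minus vehicle in KO was -0.42 ± 0.22 (limma, adjusted p = 0.601). It was -0.02 (rounded) without that library and -0.82 without KO PGE2 replicate 1. Upstream of Ptgdr lay 2 adjacent intervals, of which one had the smallest p of the family for AA in WT and the other for PGE2 in WT. From 44869352 to 44871174 the scores were 0.263 and 0.147 with vehicle and 0.109 and 0.057 with AA, a difference of -0.89 ± 0.31 (adjusted p = 1.00). The difference was -0.56 without WT vehicle replicate 1 and -1.21 without WT vehicle replicate 2. From 44871208 to 44872543 they were 0.115 and 0.108 with vehicle and 0.224 and 0.227 with PGE2, a difference of 0.74 ± 0.26 (adjusted p = 0.793). In each case the treated and vehicle libraries did not overlap, which is common with 2 libraries against 2, and neither interval passed. For the first of them the AA change in KO minus that in WT was 1.01 ± 0.44 (adjusted p = 1.00).

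Ptgir, the prostacyclin receptor gene, rested on 1 interval of 950 bp. It scored 0.084 and 0.064 (WT vehicle), 0.064 and 0.108 (WT AA), 0.063 and 0.069 (WT PGE2), 0.063 and 0.275 (KO vehicle), 0.052 and 0.064 (KO AA) and 0.119 and 0.041 (KO PGE2). Only KO vehicle replicate 2 was high. KO vehicle minus WT vehicle was 0.61 ± 0.43 and turned to -0.12 without that library, and AA minus vehicle in KO went from -0.80 ± 0.43 to -0.07. Without KO vehicle replicate 1 these 2 differences were 1.34 and -1.53. No direction is therefore given for Ptgir.

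**Figure D3:**
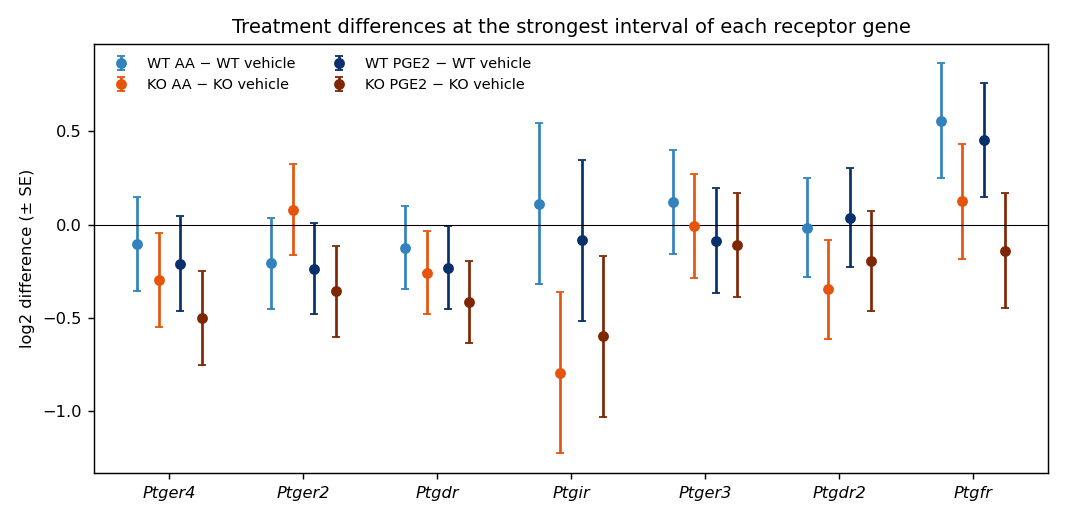
Log2 difference from vehicle (y axis, of score plus 0.0579, ± SE) at the interval of highest mean of each receptor gene, for AA and PGE2 in WT and in KO. No point passed the adjusted threshold. The PGE2 differences in KO (brown) of Ptger4 (-0.50), Ptgdr (-0.42) and Ptgir (-0.60) varied with the library left out. With 1 library left out they went to -0.01, -0.02 and 0.13. With the other library of that group left out instead they went to -0.99, -0.82 and -1.33.

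The PGE2 comparison in KO was shifted downwards for the receptors as for the genome. Of the 78 receptor intervals 58 were lower, with a median log2 difference of -0.19, and over all intervals 33.9% were higher and the median was -0.15. The median over all intervals was -0.06 without KO PGE2 replicate 2 and -0.01 after each library was centred on its median. Ptgdr2 had 4 of 4 intervals lower, Ptger4 8 of 9, Ptgdr 17 of 23, Ptger3 15 of 20, Ptger2 9 of 14, and Ptgfr 4 of 7. In the other treatment comparisons the receptors were split more evenly: 34 higher and 44 lower for AA in WT, 35 and 43 for PGE2 in WT, and 38 and 40 for AA in KO.

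Of the Gi-coupled genes, Ptger3 had higher scores in KO at most of its intervals, none of which passed. EP3, its product, opposes the cAMP rise that EP2 and EP4 produce. In KO minus WT over the treatments 15 of 20 Ptger3 intervals were higher, with a median log2 difference of 0.17. Over all intervals 41.6% were higher and the median was -0.05. The intervals lie along 1 locus and come from the same libraries, so they are not 20 independent observations.

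The Ptger3 interval of smallest p, from 157633625 to 157634578, scored 0.074 and 0.052 (WT vehicle), 0.018 and 0.106 (WT AA) and 0.083 and 0.102 (WT PGE2). In KO it scored 0.160 and 0.198 (vehicle), 0.138 and 0.077 (AA) and 0.290 and 0.090 (PGE2). In 4 KO libraries it was above every WT library, and the remaining 2, KO AA replicate 2 and KO PGE2 replicate 2, were within the WT range. The log2 difference was 0.70 ± 0.23 (limma, adjusted p = 0.321), and 0.97 ± 0.39 between the vehicle groups alone (adjusted p = 1.00). The 4 further Ptger3 intervals at an unadjusted p under 0.05 lay 6.69, 60.4, 81.7 and 119 kb downstream of the start by their centres. They differed by 0.57 ± 0.21, 0.40 ± 0.19, 0.67 ± 0.23 and 0.65 ± 0.26 (limma, adjusted p from 0.370 to 0.533). Those at 81.7 and 119 kb lay beyond the end of the gene span and were assigned to Ptger3 only as the nearest gene. Without KO PGE2 replicate 1 the difference at 60.4 kb (0.40) went to 0.26 and that at 119 kb (0.65) to 0.34. Without KO PGE2 replicate 2 they went to 0.54 and 0.97. The Ptger3 maximum, from 157597607 to 157599186, differed by only 0.01 ± 0.16, with 0.188, 0.195, 0.198, 0.230, 0.239 and 0.128 in WT and 0.237, 0.173, 0.229, 0.176, 0.314 and 0.099 in KO.

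**Figure D4:**
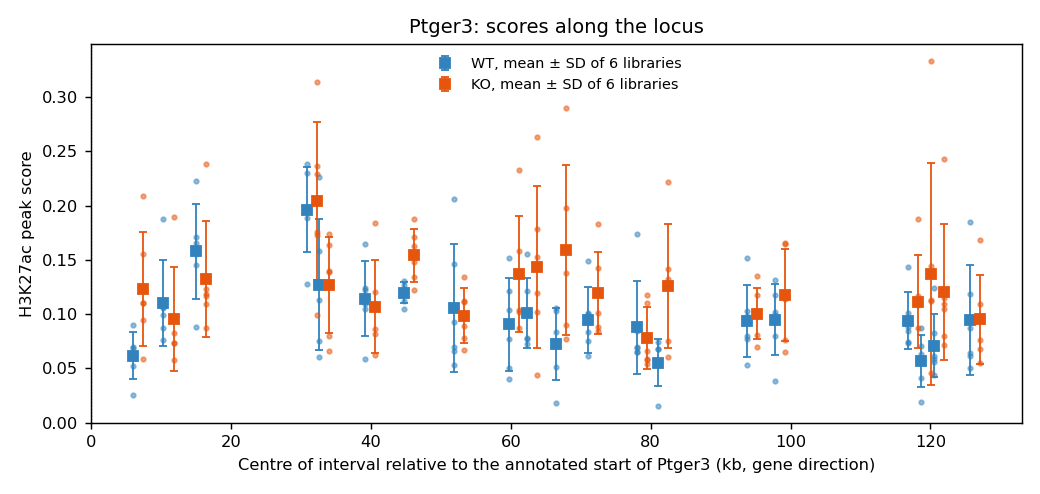
Peak score (y axis) of the 20 Ptger3 intervals against the distance of their centre from the annotated start (x axis, kb in the direction of transcription). Small points are libraries and squares are means ± SD of 6 WT (blue) or 6 KO (orange) libraries, drawn slightly apart; KO means are above WT means at several weaker intervals and close to them at the maximum, about 31.5 kb from the start.

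As 1 value per gene, Ptger3 scored 0.0928 and 0.110 (WT vehicle), 0.111 and 0.0950 (WT AA), 0.105 and 0.106 (WT PGE2), 0.143 and 0.120 (KO vehicle), 0.117 and 0.132 (KO AA) and 0.129 and 0.0862 (KO PGE2). Of the 6 KO libraries 5 lay above every WT library, and KO PGE2 replicate 2 lay below all of them. The share of all genes with such a pattern is not given here. The difference of 0.15 ± 0.083 did not pass (limma over genes, adjusted p = 0.375). The interval counts that follow stand against a background that also moved. Over all intervals the share higher in KO was 41.6% with all libraries and 46.5% without KO PGE2 replicate 2. It was 41.7% without KO vehicle replicate 1 and 37.3% without KO PGE2 replicate 1. Without KO PGE2 replicate 2, a choice made after seeing the data, 16 of 20 intervals were higher and 7 had an unadjusted p under 0.05. Without KO vehicle replicate 1 it was 15 of 20, but only 1 with such a p, and without KO PGE2 replicate 1 it was 14 of 20 and 3. The count of 5 thus moved between 1 and 7 with the library left out, while 13 to 16 of the 20 intervals were higher in each of the 12 fits. The smallest adjusted p of any Ptger3 interval over these fits was 0.0996.

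**Figure D5:**
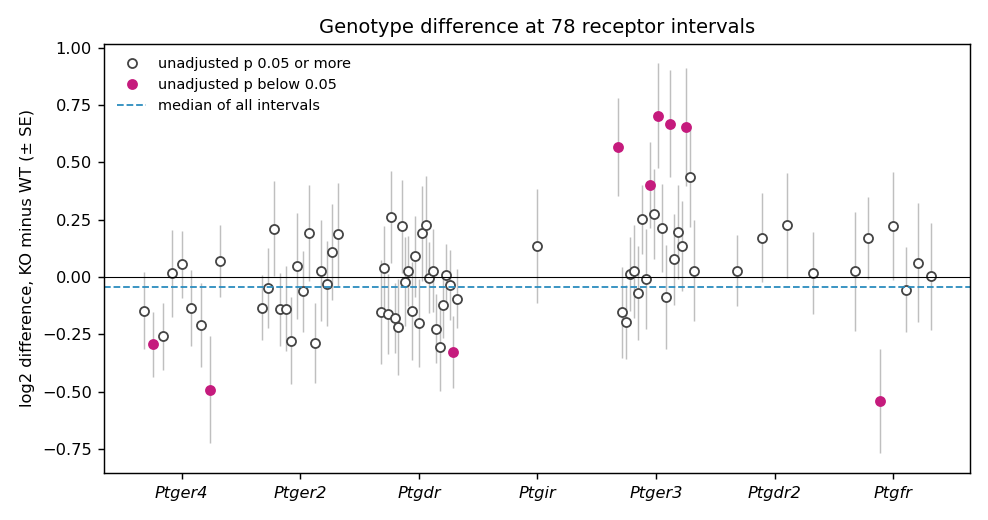
Log2 difference KO minus WT over the treatments (y axis, ± SE) for each of the 78 receptor intervals, ordered along the chromosome within each gene. Filled points have an unadjusted p under 0.05 and the dashed line is the median of all intervals (-0.05); the 5 filled points above 0 belong to Ptger3 and the 4 below 0 to Ptger4, Ptgdr and Ptgfr.

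Ptgdr2, the Gi-coupled DP2 gene, had 4 intervals, all with a positive KO minus WT difference (median 0.10). Its maximum scored 0.214 and 0.118 (WT vehicle), 0.160 and 0.156 (WT AA), 0.136 and 0.200 (WT PGE2), 0.267 and 0.140 (KO vehicle), 0.174 and 0.113 (KO AA) and 0.167 and 0.159 (KO PGE2). The genotypes overlapped throughout, with a difference of 0.03 ± 0.15 (limma, adjusted p = 0.977). As 1 value per gene both KO vehicle libraries (0.164 and 0.171) lay above both WT vehicle libraries (0.144 and 0.105). The difference of 0.31 ± 0.18 (SE) did not pass in the fit over genes, and the share of all genes so separated is not given here. KO PGE2 replicate 2 had the lowest Ptgdr2 level of the 12 (0.0874).

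Of the calcium-coupled receptor genes only Ptgfr, which encodes the receptor of prostaglandin F2 alpha, had intervals. Its maximum, from 151807448 to 151810162, scored 0.095 and 0.053 with vehicle, 0.133 and 0.135 with AA and 0.122 and 0.119 with PGE2 in WT. All 4 treated WT libraries lay above both vehicle libraries, with differences of 0.56 ± 0.31 for AA and 0.45 ± 0.31 for PGE2 (limma, adjusted p = 1.00 and 0.903). Without WT vehicle replicate 2 these were 0.33 and 0.22, and without WT vehicle replicate 1 they were 0.79 and 0.68. In KO the same interval scored 0.140 and 0.117 (vehicle), 0.179 and 0.115 (AA) and 0.153 and 0.077 (PGE2), which overlap.

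A second Ptgfr interval, from 151846857 to 151847981, upstream of the gene and overlapping the noncoding RNA Gm31596, gave the smallest p of the family for PGE2 in KO and for the PGE2 difference between genotypes. In WT it scored 0.103 and 0.080 (vehicle), 0.056 and 0.113 (AA) and 0.104 and 0.270 (PGE2). In KO it scored 0.137 and 0.118 (vehicle), 0.039 and 0.053 (AA) and 0.013 and 0.034 (PGE2). All 4 treated KO libraries lay below both KO vehicle libraries, and the share of all intervals so placed is not given here. Those 4 scores were also below 0.0579, the value added before taking log2. The differences that follow thus rest in part on scores near the floor. PGE2 minus vehicle was -1.20 ± 0.40 in KO (limma, adjusted p = 0.501), and the PGE2 change in KO minus that in WT was -1.83 ± 0.56 (adjusted p = 0.684). Leaving out each library in turn moved the second value between -2.34 and -1.32, and it did not pass in any of these fits.

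By the sign of KO minus WT alone, Ptger4 had 3 intervals higher and 6 lower, Ptger2 6 and 8, Ptgdr 9 and 14, Ptgir 1 and 0, Ptger3 15 and 5, Ptgdr2 4 and 0, and Ptgfr 5 and 2. Together 43 were higher and 35 lower. No receptor interval had its 6 KO libraries wholly above or wholly below its 6 WT libraries, against 0.125% and 0.559% of all intervals.

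The genes around the receptors were described by their strongest intervals. On the ligand side, all 16 listed genes for prostanoid synthesis, transport and breakdown had an interval, and none passed in any comparison. In KO minus WT 4 were higher and 12 lower, and 3 had an unadjusted p under 0.05, against 17.8% of the strongest intervals of all genes. The smallest was at Akr1b3, an aldo-keto reductase with prostaglandin F synthase activity, with -0.52 ± 0.13 (limma, adjusted p = 0.154). The 30 genes on the signal side were those of G-protein subunits, adenylyl cyclases, protein kinase A subunits, Creb1, Rapgef3, Rapgef4, arrestins and phospholipases C. Of these, 28 had an interval and none passed. In KO minus WT 10 were higher and 18 lower, 4 had an unadjusted p under 0.05, and Adcy8, an adenylyl cyclase, had the smallest p (-0.52 ± 0.14, adjusted p = 0.212). Over the strongest intervals of all genes 5109 were higher and 12278 lower, and 31 (0.178%) passed.

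The pattern of Ptger4 over the 12 libraries was most like those of Mylip (Pearson r = 0.936 between log2 scores of the strongest intervals), Olfr889 (0.923) and Ceacam1 (0.914), out of 17392 genes, of which 39 had r above 0.8. These values describe 12 libraries whose overall score level differs, with KO PGE2 replicate 2 the lowest (median 0.0941), and the part of this in r was not tested. The Ptger4 interval itself was highest in KO vehicle replicate 2 (0.300), and r without that library is not given here. Between the receptor genes themselves r ran from -0.46 to 0.63, with a median of 0.20 over 21 pairs.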

How the data were processed

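H3K27ac CUT&RUN was scored in 12 libraries of mouse intestinal organoids (6 groups of 2). The authors deposited 1 peak score (a signal value) for each interval in each library; SEACR, MACS2 and mm10 are named in the submitters' processing notes. The authors' score definition, its normalization, the aligner and the read depth were not given in the sources read here. Starts are printed as deposited and may be off by 1 base.

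SEACR intervals were assigned to the nearest protein-coding span of GRCm38.p6 within 50 kb. limma 3.58.1 (R 4.3.3) was fitted to log2(score + 0.0579), the 10th percentile of non-zero scores, in 1 model of 6 groups with a trend. The 166471 intervals above that value in at least 2 libraries were tested, all 78 receptor intervals among them. P-values were two-sided and adjusted by Benjamini-Hochberg over all intervals (threshold 0.05, 20.1 prior and 6 residual degrees of freedom). The fit was checked on simulated data.

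Text names all 9 genes, each gene's highest interval, each comparison's receptor interval of smallest p, and the 3 genes most like Ptger4; other intervals named were chosen after their values were seen. Members and lists were chosen with earlier results of these data known. Alternatives were other pseudocounts, filters, scalings, distances, variance settings, a replicate block and leaving out each library. H3K27me3 and H3K4me3 were not analysed here.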

Additional observations from a re-analysis of the deposited data

Results flagged for a closer look

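In the gene levels of the 6 KO libraries, Ptgir had 1 library far from the others: KO vehicle replicate 2 at 0.275, against 0.0413 to 0.119 in the remaining 5. Ptgdr likewise had 1 far library, KO PGE2 replicate 2 at 0.0991, against 0.142 to 0.155. In each case the gap to the next library took up most of the range of the 6. The comparison was made in 14 groups (7 genes by 2 genotypes), and chance gives about 1 such group in 20. KO PGE2 replicate 2 is also the library of lowest median score over all intervals (0.0941), and its part in the Ptgdr value was not tested.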

How the results depend on the processing

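The count of receptor intervals that passed stayed at 0 in all 200 recalculations over 8 comparisons, including a replicate block (0 in each comparison), and all 1360 recalculated differences at the strongest interval of the 7 genes, or of their gene values, kept their side of the threshold, with 0 reversed beyond their errors (smallest adjusted p among them 0.110). With 4 times the pseudocount only 4 receptor intervals remained above the filter, so that setting says little. No shared deviation of same-numbered libraries was seen: over 15 pairs of groups their deviations correlated from -0.02 to 0.01. This does not tell how the cultures were paired, and no label says what a replicate number marks. Among neighbouring gene levels 1 pair passed; 0 passed with genes within 10 kb and 0 with each gene's highest interval, and the cause was not tested. Leaving out each library gave 0 to 2 pairs: 0 without KO AA replicate 1, and 2 without WT vehicle replicate 2, WT AA replicate 1 or KO vehicle replicate 2. Ptger3 intervals higher in KO numbered 16 of 20 after centring each library or quantile normalization and 16 with a pseudocount 4 times smaller, with 6, 6 and 5 at an unadjusted p under 0.05. Over all intervals the share higher in KO was 47.9%, 48.9% and 41.4% in these settings, against 41.6% in the main fit. Over all intervals 175 passed for PGE2 in KO and 1482 for KO minus WT without KO PGE2 replicate 1, against 0 and 71. Depth is unknown, and 2 libraries a group limit every comparison.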
